A study of Mus musculus with 4 samples.

Results

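The Hox genes of the mouse were described in RNA from endothelial cells of the adult heart, the cells that line its vessels and chambers. The members are the 47 non-control probes, of 41174 on the array, whose accession belongs in RefSeq to a symbol that starts with Hoxa, Hoxb, Hoxc or Hoxd and goes on with a digit. They read 36 of the 39 Hox protein-coding genes, 10 of them with 2 probes, and 1 antisense transcript, Hoxd3os1, together 37 of 18353 genes with a symbol. Hoxc4, Hoxc6 and Hoxc11 had no probe matched in this way and were not analysed here.

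The samples are 2 labelled G2-EC-KO, whose genotype field reads Gata2 knock out, and 2 controls, labelled wild type, each on 1 Agilent 1-colour array. GATA2 belongs to the GATA family of DNA-binding proteins and acts in blood and endothelium. The labels call the cells adult, and strain, age in weeks, the promoter of any Cre and the deleted part of Gata2 are not given in the sources used here, nor is it stated that the samples came from separate animals, so that p-values measure only the spread between these samples. Both Gata2 probes gave log2 changes above 0, 0.30 (SE 0.18) and 0.17 (SE 0.14), and since the place of the probes relative to the deletion is not given, they check nothing about the labels.

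Hox genes encode homeodomain transcription factors that give positions along the body axis their identity. In mammals they lie in 4 clusters, Hoxa, Hoxb, Hoxc and Hoxd, and members at the same place in different clusters share a paralogue number, from 1 at the anterior end to 13 at the posterior end. In the embryo, genes with low numbers are switched on in anterior tissue and those with high numbers in posterior tissue, and many adult cells keep part of that pattern. The proteins bind DNA with PBX and MEIS cofactors, while Trithorax-type complexes keep Hox genes on and Polycomb complexes keep them off. In vascular endothelium several members are known as regulators of vessel growth.

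Between 63.8% and 66.5% of probes were well above background, the call of the scanner software for each spot, and saturation was flagged at 0 spots. With 2 arrays in each group, precision is low throughout. The slide and the scan were shared by the 4 arrays, with G2-EC-KO at positions 3 and 4 and control at positions 1 and 2, so position and group cannot be told apart. On control replicate 2, 6 of 6 probes of Y-linked genes and 0 of 4 Xist probes were well above background, while the other arrays each had 0 of 6 and 4 of 4. Control replicate 2 therefore read as male and the other arrays as female, so the 2 controls did not come from 1 animal. Sex thus differed within the control group and not within G2-EC-KO, and its part in the Hox values was not tested. Several Hox changes that control replicate 2 moves are given with and without it. The endothelial markers were well above background at 15 of 15 genes on all arrays, against 71.6% of all genes with a symbol. So were those of cardiomyocytes (14 of 14), fibroblasts (11 of 11) and pericytes and smooth muscle (11 of 11). Which cells of the preparation carried each Hox transcript was not tested. In RNA from many cells, fewer cells of a type and less RNA per cell cannot be told apart.

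Hox transcripts in these cells were those of the anterior and middle parts of the Hoxa and Hoxb clusters and of 3 Hoxd genes. Of the 36 genes with a probe, 15 were well above background on all 4 arrays by at least 1 probe, 4 on some arrays and 17 on none. By probe this was 18 of 47 on all arrays, against 61.9% of all probes, and 24 of 47 on none, against 30.3% of all probes. By gene it was 15 of 36, against 71.6% of the 18353 genes with a symbol. The counts for single arrays were 17 and 18 genes in the G2-EC-KO samples and 16 and 16 in control.

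**Figure D1:**
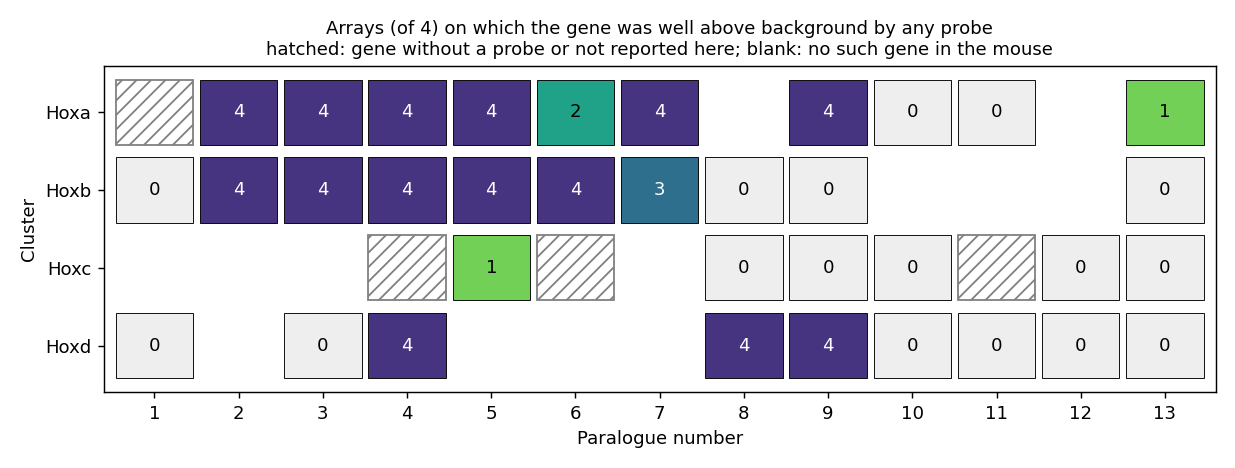
Each square is a Hox gene, hatched where it had no probe or is not reported here, placed by cluster (down) and paralogue number (across), and its number and shade give on how many of the 4 arrays it was well above background by any probe. Squares of genes called on at least 1 array run from Hoxa2 to Hoxa9 and from Hoxb2 to Hoxb7, with Hoxc5, Hoxd4, Hoxd8, Hoxd9 and Hoxa13, while 10 of 11 genes with paralogue numbers from 10 to 13 stand at 0.

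The split followed the paralogue number. Among genes numbered 1 to 9, 15 of 25 were well above background on all arrays and 7 on none. Among genes numbered 10 to 13, 0 of 11 were on all arrays and 10 on none, the exception being Hoxa13. In the Hoxa cluster Hoxa2, Hoxa3, Hoxa4, Hoxa5, Hoxa7 and Hoxa9 were well above background on all arrays, and Hoxa6 on 2. In the Hoxb cluster, of the genes numbered 1 to 9, this held for 5 of 9, Hoxb2 to Hoxb6, with Hoxb7 on 3 arrays and Hoxb1, Hoxb8 and Hoxb9 on 0. In the Hoxd cluster it held for 3 of 5, with Hoxd1 and Hoxd3 on 0. Of the 6 Hoxc genes with a probe, 0 were well above background on all arrays, and Hoxc5 was on 1 of 4. Paralogue number 4 had all 3 of its measured genes well above background on all arrays, and number 2 both of its genes.

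A looser call of the same software, a signal positive and significant against background, was met on all arrays by 18 of 25 genes numbered 1 to 9, adding Hoxa6, Hoxb7 and Hoxc5. It was also met by 2 of 11 genes numbered 10 to 13, Hoxd10 and Hoxd12. A stricter one, a signal at least 2 times the lowest that was well above background on the array, left 13 of 25 and 0 of 11. The number of genes differed with the call, and the excess of low paralogue numbers was seen with each of these 3 calls.

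The genes outside the pattern read near the floor of the array. The lowest signal called well above background was 24.0 and 19.3 in G2-EC-KO and 31.7 and 27.1 in control, in linear units of the processed signal. Of the 24 probes well above background on no array, 19 stayed under 0.5 of that level on every array. The genes well above background on no array were Hoxa10, Hoxa11, Hoxb1, Hoxb8, Hoxb9, Hoxb13, Hoxc8, Hoxc9, Hoxc10, Hoxc12, Hoxc13, Hoxd1, Hoxd3, Hoxd10, Hoxd11, Hoxd12 and Hoxd13. Hoxb8, known from myeloid progenitors, read 5.14 and 4.13 in G2-EC-KO and 6.69 and 5.78 in control at probe A_51_P402686. Both groups lie far below the detection level there. Hoxa10, next to Hoxa9 and known for its role in the uterus and in blood cells, read 6.62 and 5.33 in G2-EC-KO and 8.68 and 7.43 in control.

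Some probes stood close to the detection level and carry less certain calls. Hoxd12, a gene of the limb and genital buds, read 22.7 and 22.8 in G2-EC-KO and 10.96 and 14.6 in control, not well above background on any array. Hoxd10, described in human endothelial cells as a brake on vessel growth, read 22.3 and 16.05 in G2-EC-KO and 15.0 and 18.4 in control. The antisense transcript Hoxd3os1 read 20.1 and 20.8 in G2-EC-KO and 28.0 and 26.2 in control. No fold is given for these, since both groups were below the call. Hoxc5 was well above background on G2-EC-KO replicate 2 alone, with 17.5 and 23.4 in G2-EC-KO and 21.4 and 25.8 in control. Its highest signal was on an array where it was not called.

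Hoxa13, a gene of the hindgut, limb ends and urogenital tract, was the only posterior gene called on any array. Probe A_52_P71789 read 78.4 on G2-EC-KO replicate 1 and 4.67 on G2-EC-KO replicate 2, against 7.49 and 6.99 in control. Its other probe, A_51_P303316, read 6.08 and 4.99 in G2-EC-KO and 7.97 and 6.85 in control. The call thus rests on 1 spot of 1 array and was not seen at the second probe. Hoxb1, a hindbrain gene, is read by 10 spots of its probe, which averaged 5.86 and 5.76 in G2-EC-KO and 7.17 and 6.24 in control, with outlier spots left out. These means lie far below the detection level of each array.

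**Figure D2:**
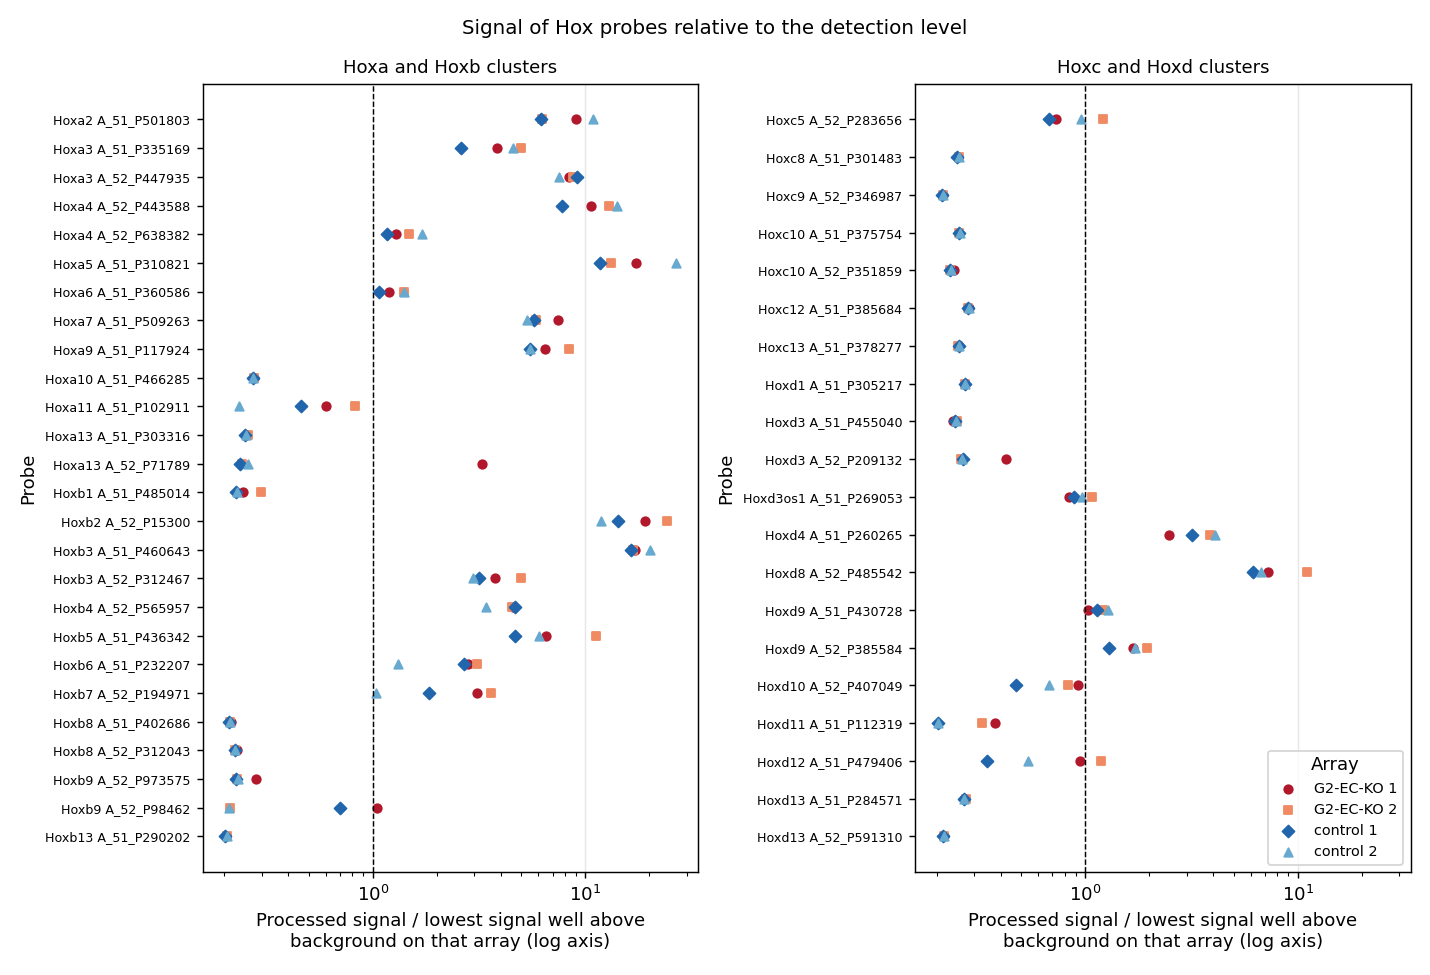
Each row is a Hox probe, and the points give its processed signal on each array divided by the lowest signal that was well above background on that array, on a log axis. The dashed line marks that level, and probes well above background on all arrays lie between 1.16 and 26.5 times it, while 19 of the 24 probes on no array stay under 0.5.

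The promoters on either side of the point where detection stopped are shown for the Hoxa and Hoxd clusters, since neighbours there differ in detection. In Hoxd this point depends on the call. Hoxd10 met the looser call on all arrays, and Hoxd9 did not meet the stricter one on all arrays. RefSeq promoters, 300 bases from 250 before to 50 after the start, were given for 22 Hox genes on build GRCm38.p6. Capitals mark GATA hexamers, searched on both strands as AGATAA or AGATAG or TGATAA or TGATAG, the kind of site GATA factors bind. Hoxa9, well above background on 4 arrays, is at chr6:52227321-52227620 on the minus strand. Hoxa10, on 0 arrays, has starts at chr6:52234890-52235189 and chr6:52240805-52241104 on the same strand. Hoxd9, on 4 arrays, is at chr2:74697513-74697812 and Hoxd10, on 0 arrays, at chr2:74691641-74691940, both on the plus strand.
Hoxa9: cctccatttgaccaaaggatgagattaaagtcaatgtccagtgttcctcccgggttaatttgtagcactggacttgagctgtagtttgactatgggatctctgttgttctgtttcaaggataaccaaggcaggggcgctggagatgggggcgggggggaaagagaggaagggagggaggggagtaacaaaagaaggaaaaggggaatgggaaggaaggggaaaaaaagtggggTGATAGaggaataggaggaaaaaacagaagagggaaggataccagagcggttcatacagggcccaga
Hoxa10, start 1: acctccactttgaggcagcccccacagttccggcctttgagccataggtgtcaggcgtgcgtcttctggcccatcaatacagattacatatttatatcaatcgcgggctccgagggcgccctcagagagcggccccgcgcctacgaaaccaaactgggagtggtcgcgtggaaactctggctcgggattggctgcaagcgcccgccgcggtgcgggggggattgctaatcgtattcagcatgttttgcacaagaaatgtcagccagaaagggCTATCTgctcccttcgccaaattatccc
Hoxa10, start 2: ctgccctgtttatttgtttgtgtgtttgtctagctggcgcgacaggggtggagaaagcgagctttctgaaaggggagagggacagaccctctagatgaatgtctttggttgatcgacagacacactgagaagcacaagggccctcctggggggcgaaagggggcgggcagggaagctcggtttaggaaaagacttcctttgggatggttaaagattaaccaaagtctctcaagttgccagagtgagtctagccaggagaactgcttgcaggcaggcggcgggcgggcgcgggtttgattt
Hoxd9: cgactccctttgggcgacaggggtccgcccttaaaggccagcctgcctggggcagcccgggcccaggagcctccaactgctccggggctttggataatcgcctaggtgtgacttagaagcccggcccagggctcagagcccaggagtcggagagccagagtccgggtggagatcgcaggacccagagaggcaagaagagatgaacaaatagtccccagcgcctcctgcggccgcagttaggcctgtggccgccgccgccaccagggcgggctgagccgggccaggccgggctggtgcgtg
Hoxd10: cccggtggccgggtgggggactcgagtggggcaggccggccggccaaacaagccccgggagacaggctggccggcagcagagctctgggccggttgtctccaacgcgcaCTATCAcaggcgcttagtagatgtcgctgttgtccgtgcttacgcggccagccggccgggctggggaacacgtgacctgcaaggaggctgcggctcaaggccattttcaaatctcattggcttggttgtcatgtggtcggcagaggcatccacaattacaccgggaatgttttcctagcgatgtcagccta

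GATA hexamers were found once in the Hoxa9 promoter, once in the first Hoxa10 window, in 0 places in the second and in the Hoxd9 window, and once for Hoxd10. Over 24 Hox promoters, 7 held at least 1 GATA hexamer, 29.2%, against 29.8% of all 32851 promoters. The HOX-PBX octamer TGATNNAT was in 4, 16.7%, against 8.85% of all promoters, and the homeodomain core TAATTA in 2, 8.33%, against 5.29%. Matches of different motifs may overlap, since TGATAA and TGATNNAT share letters. The promoters of Hox genes were rich in CpG, with a median ratio of observed to expected CpG of 0.626 against 0.384 over all promoters. The median was 0.573 for the 9 promoters of genes well above background on all arrays and 0.796 for the 12 of genes on none, with ranges of 0.280 to 1.02 and of 0.257 to 0.970 that overlap. These are counts of letters in the windows and say nothing of the factors bound there.

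The comparison the design implies asks whether Hox transcripts differ between G2-EC-KO and control. The test took probes with a call on 2 or more of the 4 arrays, which held for 21 of the 47 Hox probes, of 17 genes. Values are log2 signals relative to the 75th percentile of each array, so that below 0 means below that percentile, and changes are G2-EC-KO minus control. No Hox probe passed (limma, 0 of 21 at an adjusted p of 0.05, against 0.00372% of all 26893 probes tested), and the smallest adjusted p was 0.487. At an unadjusted p under 0.05 there were 2 of 21, against 9.61% of all probes. The groups did not overlap at 3 probes on the higher side, against 24.1% of all probes, and at 6 on the lower side, against 22.3%, together 9 of 21 against 46.4%. The members' shares thus differ little from those of the array. In all, 10 probes had a change above 0 and 11 below, against 50.1% above 0 over all probes, with a median of -0.05 beside 0.00037 for all probes. The median SE was 0.209 for the Hox probes and 0.136 for all probes tested.

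**Figure D3:**
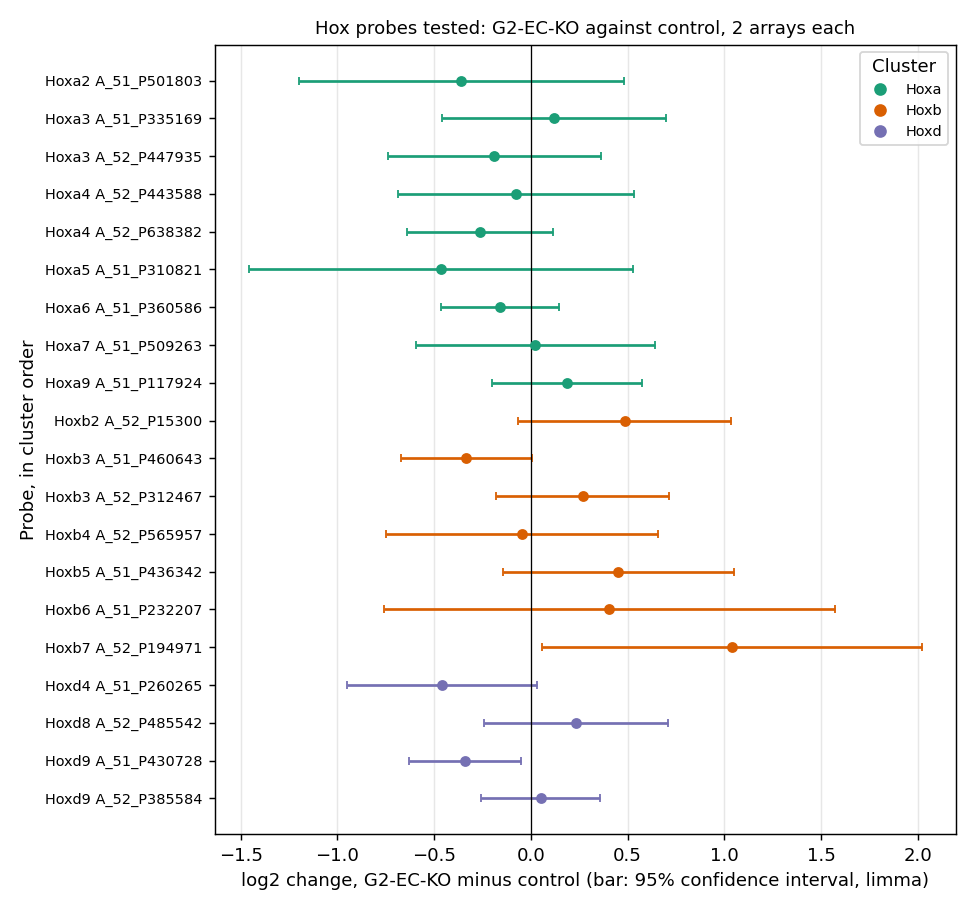
Each point is the log2 change of a Hox probe, G2-EC-KO minus control, with its 95% confidence interval from limma, coloured by cluster. The intervals of Hoxb7 and of Hoxd9 probe A_51_P430728 lie clear of 0, and 0 probes pass after adjustment over all probes.

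Of the 10 Hoxa probes tested, 3 had a change above 0 and 7 below, and 0 passed. The anterior Hoxa genes are known for patterning the hindbrain and the pharyngeal arches. Hoxa2, the gene that sets the identity of the second pharyngeal arch, read -2.57 and -3.29 in G2-EC-KO and -2.85 and -2.29 in control. The groups overlapped, with a change of -0.36 (SE 0.32; limma, adjusted p = 0.675). G2-EC-KO replicate 2 was the lowest array and control replicate 2 the highest. The change was -0.080 without control replicate 2 and -0.0024 without G2-EC-KO replicate 2.

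Hoxa3, needed for the thymus and parathyroid and described as promoting endothelial migration, has 2 probes that went opposite ways. A_52_P447935 read -2.68 and -2.80 in G2-EC-KO and -2.28 and -2.82 in control, a change of -0.19 (SE 0.21). A_51_P335169 read -3.80 and -3.61 in G2-EC-KO and -4.10 and -3.55 in control, a change of 0.12 (SE 0.22). At each probe the 2 control arrays enclosed both G2-EC-KO values, so no direction can be given for Hoxa3. Both signs turned without control replicate 1, to 0.08 and -0.16. Without control replicate 2 the changes were -0.46 and 0.39.

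Hoxa4 also had 2 probes, with changes of -0.08 (SE 0.23) at A_52_P443588 and -0.26 (SE 0.14) at A_52_P638382. The first read -2.34 and -2.24 in G2-EC-KO and -2.53 and -1.91 in control, and the second -5.39 and -5.38 in G2-EC-KO and -5.27 and -4.97 in control. The groups overlapped at the first probe and not at the dim second one, whose sign turned to 0.09 with normexp background correction. That correction added an offset of 50, more than the processed signal of the second probe on any array. Without control replicate 2 the change was 0.23 at the first probe and -0.12 at the second.

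Hoxa5, a gene of lung and neck development that is linked to quiescent endothelium in human cells, varied most among the Hoxa probes. It read -1.64 and -2.22 in G2-EC-KO and -1.92 and -1.001 in control. Control replicate 2 alone stood high, and the change was -0.46 (SE 0.38; limma, adjusted p = 0.652), with a 95% interval of -1.46 to 0.53. Without control replicate 2 it was close to 0, at -0.0029.

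The genes from Hoxa6 to Hoxa9 come next in the cluster. Hoxa6 was well above background on replicate 2 of each group, and read -5.50 and -5.46 in G2-EC-KO and -5.39 and -5.25 in control. Its change was -0.16 (SE 0.12), and it turned to 0.09 with normexp. Hoxa7 read -2.86 and -3.38 in G2-EC-KO and -2.96 and -3.32 in control, with a change of 0.02 (SE 0.23). The replicates of each group differed more than the groups did. Hoxa9, a gene of blood stem cells that in human endothelial cells is linked to NOS3, KDR and EPHB4, read -3.06 and -2.86 in G2-EC-KO and -3.03 and -3.27 in control. The groups overlapped, and the change was 0.19 (SE 0.15; limma, adjusted p = 0.645), with a 95% interval of -0.20 to 0.57, and it was 0.065 without control replicate 2.

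In the Hoxb cluster, 5 of 7 probes had a change above 0, with a median of 0.41, against 3 of 10 in Hoxa, with a median of -0.17, and 2 of 4 in Hoxd, with a median of -0.15. No probe passed, and the difference between clusters was not tested. Hoxb7, which has been linked to vessel growth in human tumours, had the largest change of the 21 probes. It read -4.12 and -4.09 in G2-EC-KO and -4.61 and -5.68 in control. The groups did not overlap, and it was not well above background on control replicate 2, which alone stood low. Its change was 1.04 (SE 0.37; limma, adjusted p = 0.512), with a 95% interval of 0.06 to 2.02, and it was 0.50 without control replicate 2 and 1.58 without control replicate 1. With normexp it was 0.51.

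Hoxb6, a gene of lung and blood progenitors, showed the same array apart. It read -4.27 and -4.31 in G2-EC-KO and -4.05 and -5.34 in control, so that control replicate 1 was the highest array and control replicate 2 the lowest. The change was 0.41 (SE 0.44; limma, adjusted p = 0.729), and without control replicate 2 it turned to -0.24. Hoxb2, another hindbrain gene, read -1.50 and -1.34 in G2-EC-KO and -1.64 and -2.17 in control. The groups did not overlap, with control replicate 2 again lowest, and the change was 0.48 (SE 0.21; limma, adjusted p = 0.537), and 0.22 without control replicate 2.

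Hoxb5, described as an activator of Kdr in endothelial precursors, read -3.04 and -2.45 in G2-EC-KO and -3.26 and -3.14 in control. Here G2-EC-KO replicate 2 stood high, the groups did not overlap and the change was 0.45 (SE 0.23; limma, adjusted p = 0.556), and 0.16 without that array. Hoxb4, a gene of blood stem cells, read -3.56 and -3.76 in G2-EC-KO and -3.26 and -3.97 in control. The control arrays enclosed both G2-EC-KO values, and the change was -0.05 (SE 0.27). It was -0.40 without control replicate 2 and 0.31 without control replicate 1.

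Hoxb3, described as promoting capillary tube formation, had 2 probes with opposite signs. A_51_P460643 read -1.64 and -1.86 in G2-EC-KO and -1.44 and -1.40 in control, a change of -0.33 (SE 0.13; limma, adjusted p = 0.523) with groups that did not overlap. A_52_P312467 read -3.83 and -3.62 in G2-EC-KO and -3.82 and -4.16 in control, a change of 0.27 (SE 0.17) with groups that overlapped, and 0.099 without control replicate 2. The 95% intervals, -0.67 to 0.0040 and -0.18 to 0.71, both include 0, so no direction is given for Hoxb3. Both carry the accession NM_001079869, and their places in the transcript are not given in the sources used here.

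Of the Hoxd genes, Hoxd4 read -4.44 and -3.99 in G2-EC-KO and -3.81 and -3.70 in control. The groups did not overlap, and the change was -0.46 (SE 0.19; limma, adjusted p = 0.532), between -0.69 and -0.23 with 1 array left out. It was nearest 0 without G2-EC-KO replicate 1. Hoxd8, described in lymphatic vessels, read -2.90 and -2.47 in G2-EC-KO and -2.85 and -2.98 in control. Its groups overlapped, with a change of 0.23 (SE 0.18), and 0.022 without G2-EC-KO replicate 2. Hoxd9, the most posterior Hoxd gene detected, gave a change of -0.34 (SE 0.11; limma, adjusted p = 0.487) at A_51_P430728, which read -5.71 and -5.65 in G2-EC-KO and -5.30 and -5.38 in control. That probe was not well above background on G2-EC-KO replicate 1, and its change was 0.0083 with normexp. The other probe, A_52_P385584, read -4.997 and -4.97 in G2-EC-KO and -5.11 and -4.96 in control, a change of 0.05 (SE 0.12), so the lower value was not seen at the second probe.

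The arrays of 1 group also differed from each other at Hox probes. The median difference in size between the control arrays was 0.338 for the 21 Hox probes and 0.121 for all probes tested, and between the G2-EC-KO arrays 0.196 and 0.183. The tested Hox probes had log2 values of at most -1.001, while all probes tested reach 8.91. Their signals lay on both sides of the median signal of the array, which was 133 and 123 in G2-EC-KO and 150 and 148 in control. Hoxa5 read 414 and 254 in G2-EC-KO and 373 and 720 in control. Hoxa6 read 28.5 and 26.9 in G2-EC-KO and 33.7 and 38.0 in control. Probes of like signal were not compared. Control replicate 2 minus replicate 1 was above 0 at 7 of 10 Hoxa probes, with a median of 0.32, and at 2 of 7 Hoxb probes, with a median of -0.52, against 49% of all probes. It was above 0 at 2 of 4 Hoxd probes, with a median of 0.02, and the difference between clusters was not tested. The extremes were 0.92 for Hoxa5 and -1.29 for Hoxb6, which on control replicate 2 read 1.31 times the lowest signal called well above background. With normexp these 2 probes gave 0.78 and -0.64, and the medians were 0.15 for Hoxa and -0.39 for Hoxb. Between the G2-EC-KO arrays, replicate 2 minus replicate 1 was above 0 at 5 of 10 Hoxa probes and 4 of 7 Hoxb probes, against 52.9% of all probes, with medians of -0.06 and 0.03.

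**Figure D4:**
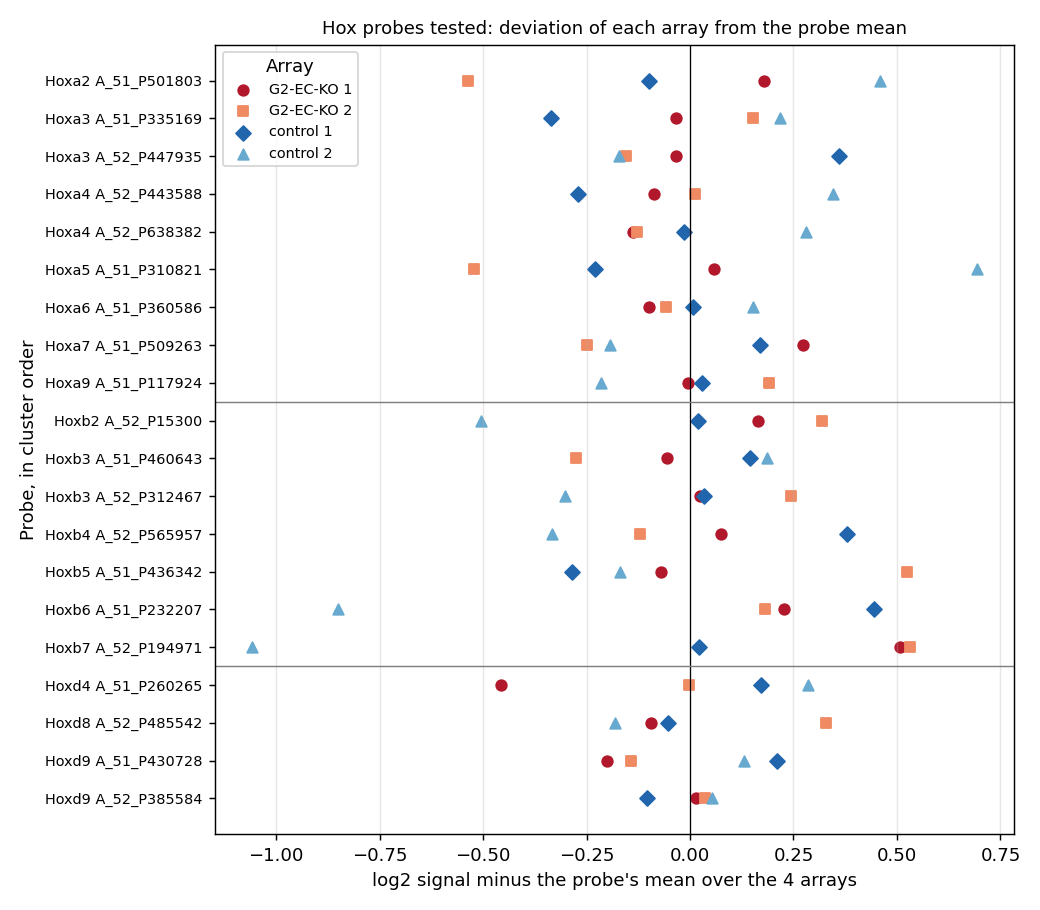
Each row is a tested Hox probe, and each point is the log2 signal of 1 array minus the mean of the probe over the 4 arrays, with lines between the Hoxa, Hoxb and Hoxd clusters. Control replicate 2 is the highest array at Hoxa5 and the lowest at Hoxb2, Hoxb6 and Hoxb7.

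Marker levels that differ alongside are these. Between the control arrays, replicate 2 minus replicate 1 was above 0 at 49% of all probes tested. The count was 12 of 12 for macrophage and monocyte markers, with a median of 0.63. It was 1 of 7 for lymphocyte markers tested, with a median of -0.75. For neural and Schwann markers tested it was 0 of 4, with a median of -0.54. The summed level of the macrophage list, in multiples of the 75th percentile, was 18.7 and 16.9 in G2-EC-KO and 11.8 and 17.3 in control, and that of the lymphocyte list 0.787 and 0.687 in G2-EC-KO and 1.17 and 0.547 in control. The neural and Schwann list summed to 4.25 and 3.81 in G2-EC-KO and 4.51 and 3.26 in control. Cd3g and Cd8a of the lymphocyte list, and Th of the neural list, were well above background on no array. Between the groups, G2-EC-KO was above control at 14 of 14 cardiomyocyte markers, whose sum was 110 and 154 in G2-EC-KO and 106 and 102 in control, and at 12 of 12 macrophage markers, with 0 of either list past the threshold. Fibroblast markers were above control at 10 of 11 and those of pericytes and smooth muscle at 2 of 11. Over all probes tested, 50.1% had a change above 0. The fibroblast list summed to 192 and 208 in G2-EC-KO and 163 and 194 in control, and the pericyte and smooth muscle list to 359 and 258 in G2-EC-KO and 350 and 314 in control. The list of blood progenitors, granulocytes, red cells and platelets summed to 162 and 87.7 in G2-EC-KO and 98.3 and 81.5 in control, with Elane well above background on no array. The part of these markers in the Hox values was not tested.

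Of the 9 PBX, MEIS and PKNOX genes, which encode cofactors of Hox proteins, 8 were well above background on all arrays, against 71.6% of all genes, and Pbx4 was on none. None passed (limma, 0 of 8 at an adjusted p of 0.05) in either direction, with 4 changes above 0, 4 below and a median of 0.00077. Meis1, which stabilises Hox complexes on DNA, read -2.07 and -2.15 in G2-EC-KO and -2.63 and -2.87 in control. The groups did not overlap, and the change was 0.64 (SE 0.13; limma, adjusted p = 0.387).

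Regulators that hold Hox clusters on or off were also measured. Of 11 Trithorax-type genes with a probe, all were well above background on all arrays, against 71.6% of all genes, and 0 passed. Their changes were above 0 at 10 genes, against 50.1% of all probes tested, with a median of 0.12. The H3K27 demethylase gene Kdm6b was the exception, at -0.35 (SE 0.17), and Psip1 had the smallest p, with a change of 0.29 (SE 0.11; limma, adjusted p = 0.512). Of 18 Polycomb genes, 18 were well above background on all arrays and 0 passed, with a median of 0.03. Among them Eed, a core subunit of the complex that methylates H3K27, had a change of 0.26 (SE 0.11) and Cbx7, a reader of that mark, -0.23 (SE 0.11).

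Retinoic acid, a known inducer of anterior Hox genes, acts through receptors and enzymes of which 14 of 19 genes on the list, which also holds the Cdx genes, were well above background on all arrays, close to the 71.6% of all genes. None of the 14 tested passed (limma, 0 at an adjusted p of 0.05), and the median change was 0.02. Stra6, which takes up retinol, read 0.27 and 0.01 in G2-EC-KO and -0.68 and -0.61 in control, without overlap, and had a change of 0.78 (SE 0.14; limma, adjusted p = 0.387). Rara, a retinoic acid receptor gene, read -4.50 and -4.56 in G2-EC-KO and -3.08 and -4.08 in control, with the control arrays far apart, and had a change of -0.95 (SE 0.35; limma, adjusted p = 0.512).

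Of the other homeobox genes of vessels and heart, 18 of 21 with a probe were well above background on all arrays, against 71.6% of all genes, and 0 passed. Meox2, a homeobox gene of heart endothelium, read 3.49 and 3.93 in G2-EC-KO and 3.64 and 3.47 in control, a change of 0.16 (SE 0.19). Meox1 had a change of 0.46 (SE 0.16; limma, adjusted p = 0.512). Evx2, which lies at the posterior end of the Hoxd cluster beyond Hoxd13, was well above background on all arrays, unlike its neighbours Hoxd10 to Hoxd13. It read -4.96 and -4.98 in G2-EC-KO and -4.82 and -4.84 in control, a change of -0.14 (SE 0.10; limma, adjusted p = 0.640). The lowest log2 values called well above background were -5.75 and -5.93 in G2-EC-KO and -5.48 and -5.73 in control. Evx2 thus stayed under 2 times the lowest called level on each array, and Hoxd10 and Hoxd12 met the looser call. Evx1, at the end of the Hoxa cluster, was well above background on none.

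Endothelial genes that the literature links to HOX factors were all well above background, 17 of 17 on all arrays, against 71.6% of all genes. Of these, 3 had a change above 0 and 14 below, against 50.1% above 0 over all probes tested. The median was -0.09, and 0 passed. Nos3, the endothelial nitric oxide synthase, read 4.49 and 4.20 in G2-EC-KO and 4.88 and 4.80 in control, a change of -0.50 (SE 0.14; limma, adjusted p = 0.464). Kdr, the main VEGF receptor, read 5.77 and 5.64 in G2-EC-KO and 5.67 and 5.88 in control, a change of -0.07 (SE 0.13). Plaur, the urokinase receptor, had a change of -0.49 (SE 0.26), and Ephb4, a venous receptor, 0.09 (SE 0.16).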

How the data were processed

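The scanner files hold spot intensity values that the authors deposited, per the file headers after background subtraction and spatial detrending and with no scaling between arrays. Array design 014868, annotation mm9 and Feature Extraction 10.7.3.1 stand in the headers, and 10.5 in the submitters' processing notes. Control spots and outlier spots were dropped, and the deposited processed signal was set on a log2 scale relative to its 75th percentile per array, then averaged over spots of a probe. Symbols came by accession from RefSeq GRCm38.p6 (26933 of 41174 probes), whose build is not that of the array. The two-sided test was limma 3.58.1 (lmFit and eBayes, R 4.3.3) with group as the only term and Benjamini-Hochberg adjustment at 0.05 over 26893 probes, and 2 residual and 2.58 prior degrees of freedom. The fit was tested on simulated data. An exact permutation test of 2 against 2 arrays has too few regroupings to pass that threshold. Hox genes called on any array are given with values, except that some genes of the set and the lists are counted but not reported here by name; those given for Hoxa10, Hoxb1, Hoxb8, Hoxd10, Hoxd12 and Hoxd3os1 were chosen after they were seen. In the other lists, the member with the smallest p in each direction and the 2 with the highest signal could be named, from the probe with the highest mean. The Hox genes, the lists and the tests were chosen with earlier results of these data known. The deposited value table equals the median spot signal minus local background plus 16, so its intensity values are linear, and it served as an alternative. The labels do not pair samples by replicate number. The deviations of replicate 1 from its group mean had a correlation of r = 0.0439 between the groups across probes. With 2 arrays in each group, that value cannot exclude pairing.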

Additional observations from a re-analysis of the deposited data

How the results depend on the processing

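Under 12 alternatives, 235 of 249 Hox probe changes kept their direction and 14, at 10 probes, did not, while the other 11 probes kept theirs throughout. These totals include settings that could not turn a sign. A changed filter, the intensity trend and the replicate block leave the change of a probe as it is by construction. No Hox probe passed in any setting that kept all 4 arrays. Normexp on mean signals was not run, since the deposited data hold no mean signal. After this was seen, normexp background correction was run on the median signal, with an offset of 50 added. With it the changes turned to 0.093 (Hoxa6), 0.0083 (Hoxd9, A_51_P430728), 0.010 (Hoxb4) and 0.086 (Hoxa4, A_52_P638382). Except for Hoxb4, the processed signals of these probes lie below that offset on every array, and its part in the turned signs was not tested. With the deposited value table the change turned to -0.0069 (Hoxa7). When 1 array was left out, changes turned for Hoxa7 (-0.24 to 0.28), Hoxb4 (-0.40 to 0.31), Hoxa3 (-0.16 to 0.39 and -0.46 to 0.078), Hoxd9 at A_52_P385584 (-0.028 to 0.13), Hoxb6 (-0.24 to 1.05) and Hoxa4 at A_52_P443588 (-0.38 to 0.23). The causes were not tested. Calls over all probes were 1 as reported, 2 with normexp or quantile normalization, 0 without a filter, with a filter on all 4 arrays, with an intensity trend or with the replicate block, and 0 to 8 with 1 array left out, the 8 without control replicate 1. The numbers pair no samples by the labels, and the replicate block left 0 Hox calls. Without a filter, 17 of 47 Hox probes had a change above 0, against 10 of 21, since dim probes then enter. Of the genes, 15 were well above background on all arrays, and 13 to 20 under the other calls. Hoxa6, 1 probe of Hoxa4 and both of Hoxd9 were read near background on every array, and Hoxb6 and Hoxb7 on control replicate 2.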
